A study of Homo sapiens with 6 samples.

Results

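The genes described here make, glycosylate and dispose of proteins in the endoplasmic reticulum (ER). They are 45 gene symbols, chosen by name from a table of 25268 symbols, and all 45 were found in it. They fall into 5 roles, with 13 chaperones and folding sensors of glycoproteins, 9 disulfide enzymes, 4 stress sensors, 9 subunits of oligosaccharyltransferase and 10 genes of ER-associated degradation. XBP1 is counted among the stress sensors, although it is a transcription factor that acts after them. RNA was measured by sequencing in A673, an Ewing sarcoma cell line that carries the EWSR1-FLI1 fusion, taken 72 h after transfection with esiRNA. An esiRNA is a pool of short interfering RNAs cut by an enzyme from long double-stranded RNA. The 3 groups received esiRNA against GFP (esiGFP, the non-targeting control), against FLI1 (esiFLI1, which reaches the transcript of the fusion) or against USP9X (esiUSP9X, a deubiquitinase), with 2 libraries each. Values are FPKM, in which fragments are divided by transcript length and library size, so levels of different genes can be set side by side per length.

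A protein that enters the ER is met by chaperones of the HSP70 and HSP90 families (HSPA5 and HSP90B1), receives N-glycans from oligosaccharyltransferase and has its cysteines paired by the protein disulfide isomerases. The lectins CALR and CANX hold glycoproteins until they fold, UGGT1 and UGGT2 mark those that have not, and EDEM proteins and OS9 direct hopeless cases to a membrane complex of SEL1L, SYVN1 and derlins, from where they are pulled out and degraded. When unfolded protein builds up, the sensors ERN1, EIF2AK3 and ATF6 switch on the unfolded protein response. ATF6 and the spliced form of XBP1 then activate chaperone genes through short promoter elements.

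Those elements were looked for in the promoters, because ATF6 and XBP1 act through them. A gene can belong to the response without one in its window: DNAJB9, MANF and SEL1L, which are known response genes, held neither ERSE nor ERSE-II here. Promoter windows from RefSeq (GRCh38.p14, 250 bases before to 50 bases after a start site) were matched to 39 of the 45 genes. No window was matched for PDIA3, RPN1, STT3B, TUSC3, DERL1 or DERL3. The ER stress element ERSE was searched on both strands as CCAAT and CCACG separated by 9 bases of any kind, and its variant ERSE-II as ATTGG and CCACG separated by 1 base of any kind. ERSE was found in 8 of the 39 genes (CALR, CANX, CRELD2, ERO1LB, HSP90B1, HSPA5, PDIA6 and XBP1). A gene counts if any of its windows holds a match. By the same rule 25 of all 27305 symbols with a window held it (0.0916%), and 27 of all 35116 windows (0.0769%). ERSE-II was found in HERPUD1, HYOU1 and SDF2L1, in 19 of all symbols (0.0696%) and in 19 of all windows (0.0541%). Another element, UPRE, searched as TGACGTGG, was found in HYOU1 alone among the 39, where it overlapped an ERSE-II match. It was in 0.927% of all symbols and 0.729% of all windows. Pairs of the GGAA core bound by ETS factors such as FLI1, searched as GGAAGGAA, were found in ERO1L and PDIA6. They were in 4.5% of all symbols and 3.67% of all windows. In PDIA6 the pair and the ERSE lay in windows of different start sites, which FPKM per gene does not separate. A match is a description of letters, not a bound site. The sequences shown are those of HSPA5 and XBP1, whose RNA was called in no comparison, of HSP90B1, which rose in esiFLI1, and of SDF2L1, which fell there. They are read 5′ to 3′ on the gene's strand, with the element in capitals.
HSPA5: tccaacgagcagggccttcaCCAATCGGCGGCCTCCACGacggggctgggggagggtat
XBP1: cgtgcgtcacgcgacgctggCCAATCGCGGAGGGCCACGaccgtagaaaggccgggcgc
HSP90B1: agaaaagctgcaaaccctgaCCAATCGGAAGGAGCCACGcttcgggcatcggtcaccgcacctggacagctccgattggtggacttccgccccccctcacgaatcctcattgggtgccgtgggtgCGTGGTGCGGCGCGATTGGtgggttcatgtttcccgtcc
SDF2L1: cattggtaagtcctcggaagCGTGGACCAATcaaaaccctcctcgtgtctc
The HSPA5 stretch is chr9:125241371-125241429 on the minus strand, and its ERSE starts 66 bases before the start site. The XBP1 stretch is chr22:28800583-28800641 on the minus strand, with its ERSE 52 bases before the start. The HSP90B1 stretch is chr12:103930196-103930359 on the plus strand and holds 2 matches on opposite strands, 194 and 89 bases before the start. The SDF2L1 stretch is chr22:21642094-21642144 on the plus strand, with an ERSE-II on the opposite strand 188 bases before the start.

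The targeted genes fell in their own knockdowns, with a log2 change of -1.09 for FLI1 (blocked adjusted p = 0.00044, 0.13 without a block) and of -1.77 for USP9X (0.00045 and 1.0). FLI1 was 24.1 and 36.4 FPKM with esiGFP, 12.7 and 14.1 with esiFLI1 and 25.0 and 31.9 with esiUSP9X. The 5′ partner of the fusion, EWSR1, was 105 and 117 FPKM, then 94.1 and 84.9, then 108 and 113. USP9X was 20.6 and 26.5 FPKM with esiGFP, 26.2 and 37.7 with esiFLI1 and 5.31 and 7.1 with esiUSP9X. Against esiGFP its log2 change in esiFLI1 was 0.41 (blocked adjusted p = 0.013, 0.60 without a block), and that call ended without esiGFP 2 (0.12) or esiFLI1 2 (0.087). Of 8 Ewing sarcoma markers, 7 were at 1 FPKM or more in all libraries, and CD99 was listed at 0 in all 6. The reason for these values of CD99 was not tested, and they cannot be read as absence. The summed FPKM of 4 endothelial markers was at most 1.57, and that of epithelial, blood and muscle markers at most 0.592. A microRNA symbol, MIR6723, held 33.2% to 35.8% of a library's FPKM sum in the replicates numbered 1 and 41.8% to 50.9% in those numbered 2, highest in esiFLI1 2. The members' values in esiFLI1 after rescaling without this symbol are given with that comparison.

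The replicate number left a mark on most of these genes. In 37 of the 44 genes that passed the filter on low values, replicate 2 differed from replicate 1 in the same direction in all 3 groups. The pattern was not particular to them, since over all 12169 genes tested the deviations from group means correlated at 0.589 to 0.647 between groups. KRTCAP2, an accessory subunit of oligosaccharyltransferase, showed it most plainly, with 81.6, 81.2 and 82.6 FPKM in the replicates numbered 1 and 19.5, 17.7 and 23.7 in those numbered 2. Each comparison was therefore fitted with limma without and with the replicate number as a block (adjusted p from limma, Benjamini-Hochberg over all 12169 genes tested). The fit without a block was planned as the test and the block as an alternative. Calls were taken from the alternative because of the replicate pattern seen in these data. A gene is written as higher, lower, risen or fallen below only where the blocked fit gave an adjusted p under 0.05. The fit without a block called 0 of the 44 genes in any comparison, while of all genes it called 2.58% higher and 0.23% lower in esiFLI1, 0.0247% and 0.0% in esiUSP9X, and 0.419% and 2.66% in esiUSP9X against esiFLI1. At an unadjusted p under 0.05 it had 3 of the 44 in esiFLI1 (6.82%, against 15.8% of all genes), 1 in esiUSP9X (2.27%, against 0.937%) and 5 between the knockdowns (11.4%, against 15.9%).

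**Figure D1:**
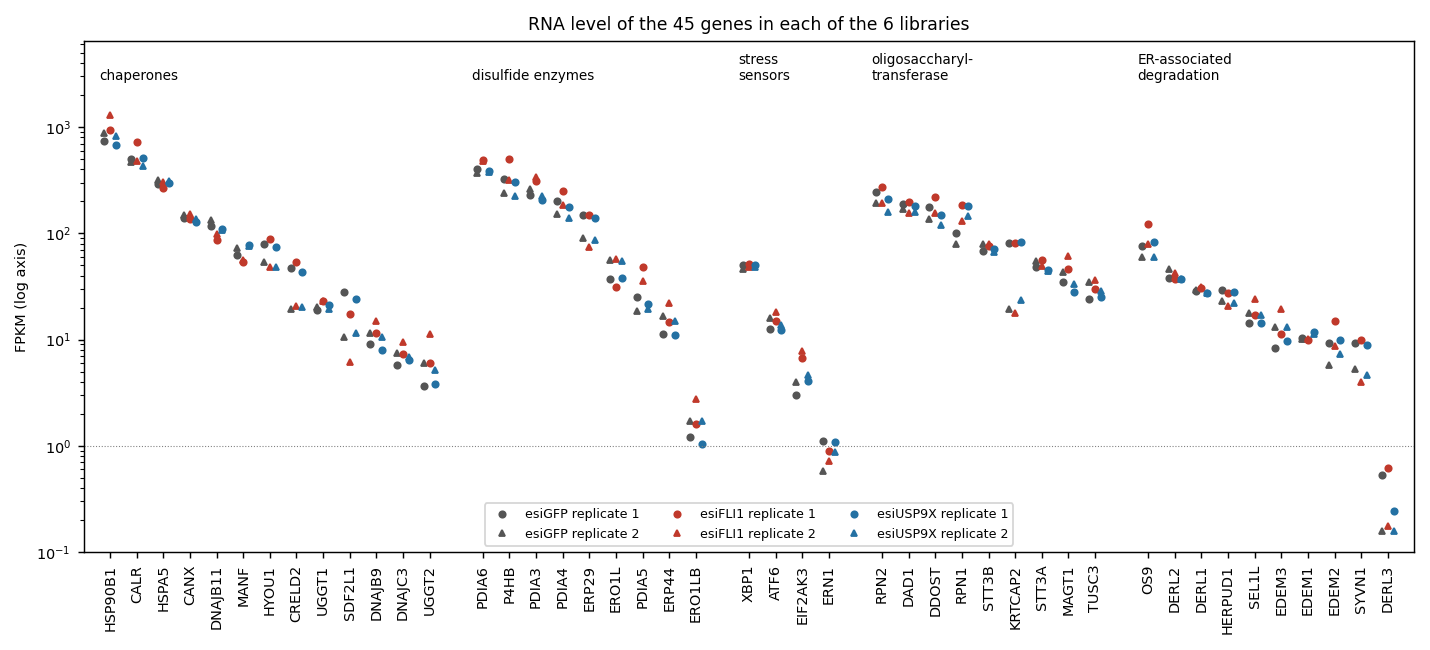
FPKM of each of the 45 genes (log axis) in the 6 libraries, ordered by role and by mean level. Colours are groups, circles are replicate 1 and triangles replicate 2, and the dotted line is 1 FPKM. HSP90B1 is at the top with 678 to 1288 FPKM, and DERL3 lies under the line in all libraries.

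In the control cells the abundant members were the folding machinery. HSP90B1, the HSP90 of the ER, was 740 and 888 FPKM with esiGFP, CALR 501 and 474, PDIA6 401 and 371, P4HB 325 and 241, and HSPA5, the HSP70 of the ER also called BiP, 294 and 317. Chaperones made up 42.2% to 48.5% of the summed FPKM of the 45 genes in a library and disulfide enzymes 27.2% to 31.4%. Oligosaccharyltransferase made up 16.8% to 21.4% and degradation genes 4.61% to 5.1%. The sensors ERN1 and EIF2AK3 were among the lowest, with 1.12 and 0.582 FPKM and 3.0 and 3.99 FPKM with esiGFP. DERL3, a derlin, was between 0.158 and 0.618 FPKM in all 6 libraries, and it was the 1 member that the filter removed.

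The comparison of esiFLI1 with esiGFP asks what changes when the fusion is reduced. By role, 6 of 9 disulfide enzymes, 4 of 9 degradation genes, 3 of 13 chaperones, 2 of 9 subunits of oligosaccharyltransferase and 1 of 4 sensors rose, and 2 chaperones fell. Among members known as targets of the unfolded protein response, HSP90B1, DNAJB9, PDIA4, PDIA6 and SEL1L rose, and SDF2L1 and DNAJB11 fell. HSPA5, HERPUD1, XBP1, HYOU1, CRELD2, MANF, DNAJC3 and EDEM1 were not called. Neither were CALR, CANX and ERO1LB, which held an ERSE, or SYVN1, DERL1 and DERL2. These targets follow no fixed list, so no share is drawn from them. In the blocked fit 16 of 44 members were higher (36.4%, against 20.6% of all genes tested) and 2 were lower (4.55%, against 21.6%). The median log2 change was 0.21 over the members and -0.03 over all genes, and 30 of the 44 members had a positive change. When libraries were rescaled to their sum without MIR6723, EEF1A1 and FN1, the median of all genes moved to 0.107 and that of the members to 0.37, and 11 members changed sign, HSPA5, HYOU1, ERP29, ERO1L, ERN1, DAD1, KRTCAP2, HERPUD1, SYVN1, DERL2 and EDEM1, none of which was called. Both esiFLI1 libraries exceeded both esiGFP libraries for 11 members (25.0%, against 19.8% of all genes), and lay under both for 3 (6.82%, against 17.3%). Within both replicate numbers, 27 members were above esiGFP (61.4%, against 38.5% of all genes) and 9 under it (20.5%, against 43.7%). The summed FPKM of the 45 genes was 4680 and 4459 in esiGFP, 5723 and 5201 with esiFLI1 and 4539 and 4203 with esiUSP9X, so it was highest in esiFLI1. In this bulk RNA, more cells of a kind and more RNA per cell cannot be told apart. The count of higher members was 6 without esiFLI1 2 (13.6%, near the 12.2% of all genes higher in that fit), 9 without esiFLI1 1 (20.5%, against 15.2%) and 10 without esiGFP 1 (22.7%, against 17.7%). The count of lower members was 0 without esiFLI1 2 (0.0%, against 9.48%) and 1 without esiFLI1 1 or esiGFP 2 (2.27%, against 15.1% and 13.5%). PDIA5, EIF2AK3, RPN1 and OS9 were the members whose call held whichever library was left out. Those fits leave 1 library in a group and rest more on the spread shared across genes, so a held call is a weak check.

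**Figure D2:**
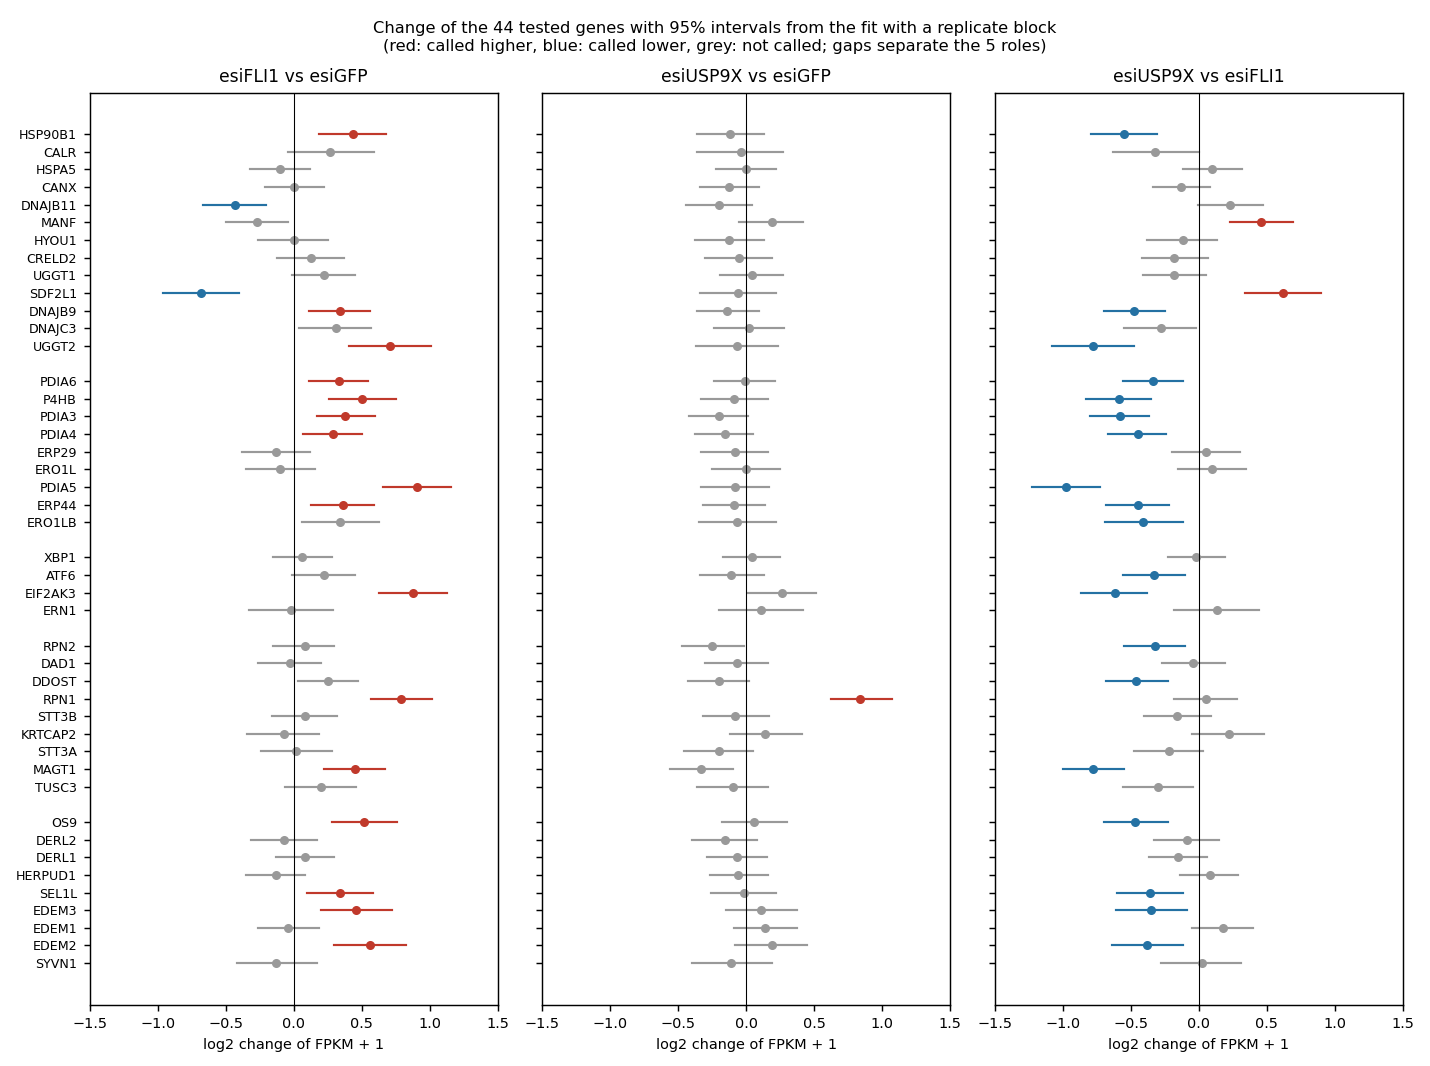
Log2 change of FPKM + 1 for the 44 tested genes in the 3 comparisons, with 95% intervals from the fit with a replicate block. The left panel has 16 red and 2 blue points (called higher and lower), the middle panel 1 red point (RPN1) and the right panel 2 red and 19 blue points. The left and middle panels share the esiGFP libraries, the left and right panels the esiFLI1 libraries, and the middle and right panels the esiUSP9X libraries.

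Of the 9 disulfide enzymes, 6 rose in esiFLI1 (66.7%, against 20.6% of all genes) and 0 fell. PDIA5, an isomerase of moderate abundance, was 25.0 and 18.6 FPKM with esiGFP, 48.1 and 35.5 with esiFLI1 and 21.6 and 19.3 with esiUSP9X. Both esiFLI1 libraries were well above all other libraries (log2 change 0.91, SE 0.11, adjusted p = 0.00061 blocked, 0.16 without). P4HB, the founding isomerase and also the beta subunit of collagen prolyl 4-hydroxylase, was 325 and 241 FPKM with esiGFP, 500 and 315 with esiFLI1 and 305 and 227 with esiUSP9X. Its groups overlapped, since esiFLI1 2 lay under esiGFP 1, but it was higher in esiFLI1 within each replicate number (log2 change 0.50, SE 0.11, adjusted p = 0.0072). PDIA3, which works with the lectins CALR and CANX on glycoproteins, was 231 and 264 FPKM with esiGFP, 308 and 338 with esiFLI1 and 205 and 225 with esiUSP9X. It had no overlap with either of the other groups (log2 change 0.38, SE 0.09, adjusted p = 0.013). PDIA6 was 401 and 371 FPKM with esiGFP, 495 and 475 with esiFLI1 and 383 and 381 with esiUSP9X, again without overlap (log2 change 0.33, adjusted p = 0.027). ERP44, which retains client proteins between ER and Golgi, rose by 0.36 (adjusted p = 0.023) and PDIA4 by 0.29 (adjusted p = 0.038). The oxidase ERO1L, which recharges P4HB, was 36.9 and 56.4 FPKM with esiGFP and 31.5 and 57.6 with esiFLI1 and was not called, and neither were ERO1LB (1.21 and 1.73, then 1.59 and 2.75 FPKM) and ERP29 (149 and 89.7, then 148 and 74.9 FPKM). The blocked calls of this role were sensitive to single libraries. That of P4HB ended without esiFLI1 1 (0.051), and that of PDIA3 without esiGFP 1 (0.075), esiFLI1 1 (0.057) or esiFLI1 2 (0.06). PDIA4 and PDIA6 lost theirs whichever of the 6 libraries was left out (0.079 to 0.22 and 0.057 to 0.17), and ERP44 without esiGFP 1 (0.14), esiGFP 2 (0.11), esiFLI1 1 (0.056) or esiFLI1 2 (0.12). Adjusted p for the 6 genes ran from 7.3e-07 to 0.96 over all alternatives.

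Of the 4 genes counted as stress sensors, XBP1 among them, EIF2AK3 rose (25.0%, near the 20.6% of all genes) and the others were not called. EIF2AK3 encodes PERK, the kinase that slows translation when the ER is stressed. It was 3.0 and 3.99 FPKM with esiGFP, 6.72 and 7.82 with esiFLI1 and 4.08 and 4.64 with esiUSP9X. The esiFLI1 libraries were the highest and the esiGFP libraries the lowest, with no overlap among the 3 groups (log2 change 0.88 with esiFLI1, SE 0.11, adjusted p = 0.00067 blocked, 0.12 without, 4.9e-06 to 0.44 over all alternatives). XBP1 was 49.8 and 46.0 FPKM with esiGFP, 51.6 and 48.6 with esiFLI1 and 50.6 and 48.0 with esiUSP9X. These 6 values nearly coincided, and the blocked 95% interval of the log2 change in esiFLI1 was -0.15 to 0.28. A gene total does not separate spliced from unspliced XBP1 RNA. ATF6 was 12.6 and 15.8 FPKM with esiGFP and 15.1 and 18.3 with esiFLI1, which overlapped (log2 change 0.22, adjusted p = 0.11). ERN1, the sensor that splices XBP1 RNA, was 1.12 and 0.582 FPKM with esiGFP and 0.891 and 0.721 with esiFLI1.

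Among the 13 chaperones 3 rose (23.1%, near the 20.6% of all genes) and 2 fell (15.4%, against 21.6%). HSP90B1 was 740 and 888 FPKM with esiGFP, 933 and 1288 with esiFLI1 and 678 and 824 with esiUSP9X. Both esiFLI1 libraries exceeded the other 4 (log2 change 0.44, SE 0.10, adjusted p = 0.013). UGGT2, a paralog of the glucosyltransferase that tags misfolded glycoproteins, was 3.64 and 6.07 FPKM with esiGFP, 6.08 and 11.4 with esiFLI1 and 3.81 and 5.22 with esiUSP9X (log2 change 0.71, SE 0.13, adjusted p = 0.0039). DNAJB9, a co-chaperone that hands clients to degradation, was 9.02 and 11.5 FPKM with esiGFP and 11.5 and 15.0 with esiFLI1 (log2 change 0.34, adjusted p = 0.025).

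The 2 chaperone genes that fell were SDF2L1 and DNAJB11. SDF2L1 was 28.3 and 10.6 FPKM with esiGFP, 17.5 and 6.15 with esiFLI1 and 23.9 and 11.5 with esiUSP9X. The groups overlapped, with replicate 2 far lower in each, but the difference was alike within both numbers, -0.67 and -0.70 (log2 change -0.68, SE 0.12, adjusted p = 0.0036). DNAJB11, an HSP40 co-chaperone, was 116 and 134 FPKM with esiGFP, 86.5 and 97.8 with esiFLI1 and 110 and 107 with esiUSP9X, so esiFLI1 lay under both other groups (log2 change -0.43, SE 0.10, adjusted p = 0.012). HSPA5 was 294 and 317 FPKM with esiGFP, 270 and 301 with esiFLI1 and 298 and 312 with esiUSP9X, which overlapped (blocked 95% interval of the log2 change in esiFLI1 -0.32 to 0.12). The other 7 chaperones, CALR, CANX, UGGT1, DNAJC3, HYOU1, CRELD2 and MANF, were not called, with log2 changes from -0.27 for MANF, a secreted stress protein, to 0.31 for DNAJC3, an inhibitor of PERK. CALR was 501 and 474 FPKM with esiGFP but 728 and 475 with esiFLI1, so its higher mean came from 1 library. CANX was 139 and 149 FPKM with esiGFP and 136 and 153 with esiFLI1. The calls ended for HSP90B1 without esiFLI1 2 (0.093), esiUSP9X 1 (0.051) or esiUSP9X 2 (0.052), for UGGT2 without esiFLI1 2 (0.055) and for SDF2L1 without esiFLI1 2 (0.058). They also ended for DNAJB9 without esiGFP 1 (0.11), esiGFP 2 (0.20), esiFLI1 1 (0.069) or esiFLI1 2 (0.10), and for DNAJB11 without esiGFP 2 (0.097), esiFLI1 1 (0.078) or esiFLI1 2 (0.059). Over all alternatives adjusted p ran from 0.00026 to 1.0 for these 5 genes.

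**Figure D3:**
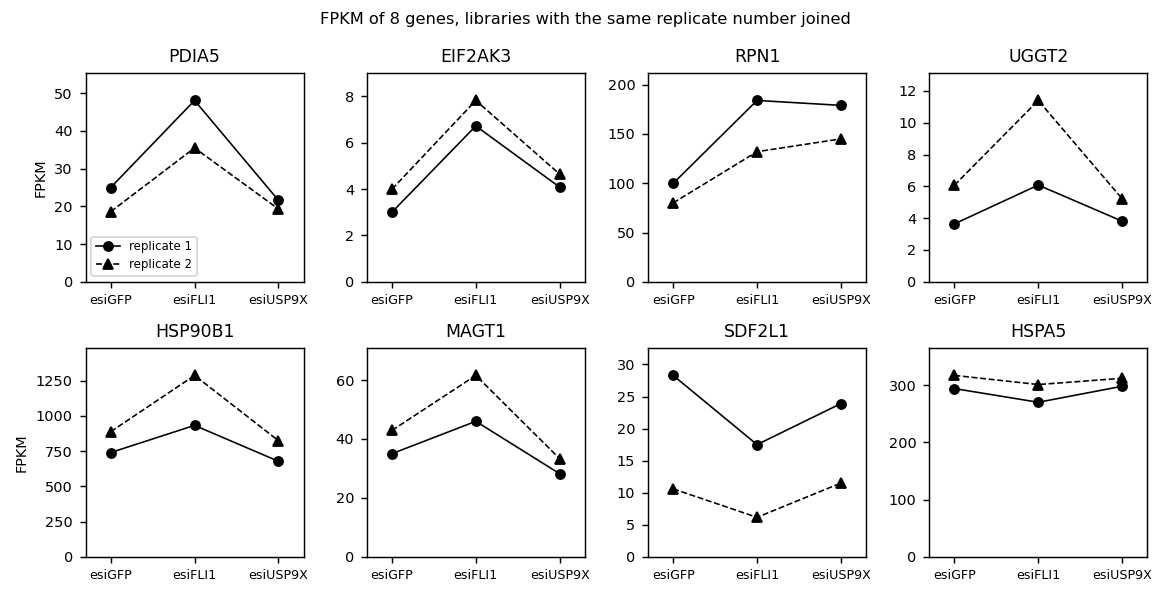
FPKM of 8 genes by group, with libraries of the same replicate number joined by a line (solid for replicate 1, dashed for replicate 2). PDIA5, EIF2AK3, UGGT2, HSP90B1 and MAGT1 peak in esiFLI1, RPN1 is high in both knockdowns, SDF2L1 dips in esiFLI1 and HSPA5 stays between 270 and 317 FPKM.

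Of the 9 genes of oligosaccharyltransferase, 2 rose in esiFLI1 (22.2%, near the 20.6% of all genes) and 0 fell, with a median log2 change of 0.08. RPN1, a structural subunit also called ribophorin I, was 99.8 and 80.0 FPKM with esiGFP, 184 and 132 with esiFLI1 and 179 and 145 with esiUSP9X. Its control libraries were the lowest and the knockdowns overlapped each other (log2 change 0.79 with esiFLI1, SE 0.10, adjusted p = 0.0007 blocked, 0.21 without). MAGT1, the oxidoreductase subunit of the STT3B complex, was 35.0 and 42.9 FPKM with esiGFP, 46.0 and 61.6 with esiFLI1 and 28.2 and 33.3 with esiUSP9X, with no overlap among the 3 groups (log2 change 0.45 with esiFLI1, SE 0.10, adjusted p = 0.0085). Its call ended without esiGFP 2 (0.052) or esiFLI1 2 (0.066), and for RPN1 and MAGT1 adjusted p ran from 1e-05 to 0.82 over all alternatives. The catalytic subunits were not called. STT3A was 48.6 and 55.3 FPKM with esiGFP and 55.5 and 49.7 with esiFLI1, and STT3B was 68.4 and 78.7, then 76.4 and 78.8. RPN2, the partner of RPN1 in the same complex, was 243 and 192 FPKM with esiGFP, 271 and 191 with esiFLI1 and 209 and 159 with esiUSP9X. DDOST (176 and 135, then 218 and 155 FPKM), DAD1 (187 and 168, then 196 and 154) and TUSC3, the alternative to MAGT1 (24.1 and 34.5, then 30.2 and 36.7), also overlapped between esiGFP and esiFLI1, as did KRTCAP2.

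Of the 9 tested genes of ER-associated degradation, 4 rose (44.4%, against 20.6% of all genes) and 0 fell. OS9, a lectin that reads trimmed glycans, was 76.6 and 60.4 FPKM with esiGFP, 122 and 79.3 with esiFLI1 and 83.7 and 60.0 with esiUSP9X (log2 change 0.52, SE 0.10, adjusted p = 0.0056). EDEM2, which starts mannose trimming, was 9.31 and 5.78 FPKM with esiGFP and 14.8 and 8.7 with esiFLI1 (log2 change 0.56, adjusted p = 0.0061). EDEM3, which continues it, was 8.25 and 13.1 FPKM with esiGFP and 11.2 and 19.3 with esiFLI1 (log2 change 0.46, adjusted p = 0.014). SEL1L, the scaffold that receives these clients, was 14.2 and 17.8 FPKM with esiGFP and 17.2 and 24.2 with esiFLI1 (log2 change 0.34, adjusted p = 0.031). Of the 4, OS9 alone had no overlap between esiFLI1 and esiGFP. The ligase SYVN1 (9.36 and 5.31, then 9.97 and 4.0 FPKM), HERPUD1, which organises the complex and is a common stress marker (29.4 and 23.1, then 27.2 and 20.5 FPKM), and the derlins DERL1 and DERL2 were not called. EDEM1 was 10.4 and 10.1 FPKM with esiGFP and 9.92 and 10.1 with esiFLI1. Calls ended for EDEM2 without esiFLI1 1 (0.058), for EDEM3 without esiFLI1 2 (0.11) and for SEL1L without esiGFP 1 (0.10), esiGFP 2 (0.20) or esiFLI1 2 (0.17), and adjusted p ran from 0.0014 to 0.94 over all alternatives.

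The changes in esiFLI1 were set beside the promoter elements shown for HSPA5, XBP1, HSP90B1 and SDF2L1. Of the 11 genes with ERSE or ERSE-II, 2 rose (HSP90B1 and PDIA6) in esiFLI1, which is 18.2% and near the 20.6% of all genes, and 1 fell (SDF2L1), with a median log2 change of 0.06. Of the 28 genes with a window but neither element, 12 rose (42.9%) and 1 fell (DNAJB11), with a median of 0.24. The difference between these classes was not tested.

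**Figure D4:**
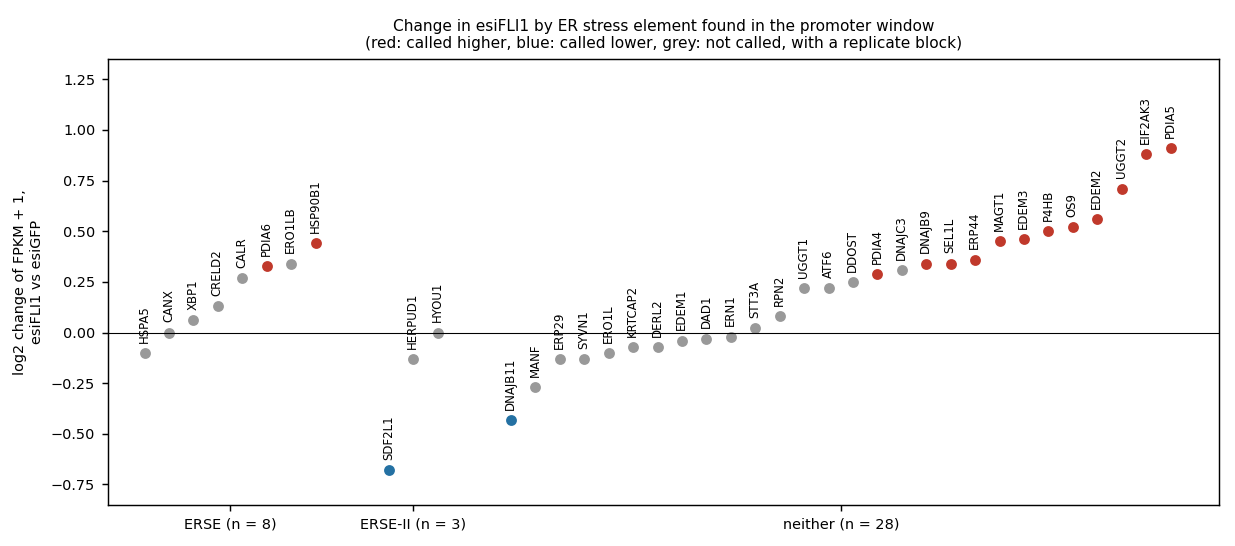
Log2 change of FPKM + 1 with esiFLI1 against esiGFP for the 39 genes with a promoter window, split by the element found and ordered by change. Of the genes with neither element 12 of 28 are red (called higher), and of those with ERSE or ERSE-II 2 of 11.

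Knockdown of the deubiquitinase USP9X left almost all of these genes uncalled against esiGFP. RPN1 was the single member called, from 99.8 and 80.0 FPKM to 179 and 145 (log2 change 0.84, with 0.83 and 0.85 in the replicates, SE 0.10, blocked adjusted p = 0.021, 1.0 without a block). That is 1 of 44 members (2.27%) against 0.074% of all genes called higher, and 0 members were lower, against 0.164%. The call of RPN1 ended without esiFLI1 1 (0.11), esiFLI1 2 (0.12), esiUSP9X 1 (0.24) or esiUSP9X 2 (0.33), while its log2 change stayed between 0.79 and 0.89 there, and adjusted p ran from 2.1e-05 to 1.0 over all alternatives. Both knockdowns were measured against the same 2 control libraries, so the rises of RPN1 in them are not independent of each other. Of the other subunits, RPN2, DDOST, STT3A and MAGT1 had log2 changes of -0.25, -0.20, -0.20 and -0.33, and KRTCAP2 one of 0.14. None of them was called. The blocked intervals of MAGT1 (-0.56 to -0.1) and RPN2 (-0.47 to -0.02) lay under 0, and those of DDOST, STT3A and KRTCAP2 held 0. The adjustment was stricter here than in esiFLI1. MAGT1 had an unadjusted p of 0.01 in the blocked fit (adjusted 0.3). In esiFLI1 the same fit called PDIA4 at 0.015 (adjusted 0.038). Counts of calls in these comparisons therefore rest on unlike cutoffs.

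For the remaining genes in esiUSP9X the blocked intervals were narrow. For 43 of 44 members (97.7%, against 89.4% of all genes) the 95% interval lay within a 1.5-fold change in either direction, and RPN1 was the exception. HSPA5 had an interval of -0.22 to 0.22, XBP1 of -0.17 to 0.25 and HSP90B1 of -0.36 to 0.13 on the log2 scale. Their width depends on the block. Without it the SE was 0.16 for HSPA5 (0.09 with it), 0.24 for HSP90B1 (0.10), 0.69 for SDF2L1 (0.12) and 1.07 for KRTCAP2 (0.11). An interval within 1.5-fold is not absence of change. In esiFLI1 28 of the 44 members (63.6%, against 55.0% of all genes) also had one, among them PDIA4, which was called higher there. Lying under both control libraries were 7 members (15.9%, against 7.82% of all genes), among them MAGT1, PDIA3 and DNAJB11, and lying above were 4 (9.09%, against 8.75%), which were RPN1, EIF2AK3, MANF and EDEM1. EIF2AK3 was 4.08 and 4.64 FPKM against 3.0 and 3.99 in esiGFP (log2 change 0.26, blocked interval 0.01 to 0.51, adjusted p = 0.45). MANF was 77.1 and 76.0 FPKM against 62.1 and 72.4 (log2 change 0.19, adjusted p = 0.58).

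The knockdowns were also compared with each other, which is the test of a difference between them. In esiUSP9X 19 members were lower than in esiFLI1 (43.2%, against 20.9% of all genes) and 2 were higher (4.55%, against 20.2%), with a median log2 change of -0.25 over the members and 0.02 over all genes. Both esiUSP9X libraries lay under both esiFLI1 libraries for 20 members (45.5%, against 21.1% of all genes) and above them for 3 (6.82%, against 18.4%). Of the disulfide enzymes 7 of 9 were lower (77.8%), with PDIA5 at -0.98 (adjusted p = 0.0004), P4HB at -0.59 and PDIA3 at -0.58. MAGT1 (-0.78, adjusted p = 0.00073), UGGT2 (-0.78), EIF2AK3 (-0.62), DDOST (-0.46) and ATF6 (-0.33) were also lower. The 2 genes higher in esiUSP9X were SDF2L1 (0.62) and MANF, at 54.3 and 56.6 FPKM in esiFLI1 and 77.1 and 76.0 with esiUSP9X (0.46, adjusted p = 0.0089). RPN1 did not differ beyond its spread, with a log2 change of 0.05 and an interval of -0.18 to 0.28. The count of lower members was 6 without esiUSP9X 1 (13.6%, near the 12.8% of all genes lower in that fit), 9 without esiUSP9X 2 (20.5%, against 14.2%), 11 without esiFLI1 2 (25.0%, against 12.7%) and 12 without esiFLI1 1 (27.3%, against 15.3%). That of higher members was 0 without esiFLI1 2 (0.0%, against 8.95%) and 1 without either esiUSP9X library (2.27%, against 9.61% and 9.24%). Calls of PDIA5, PDIA3, MAGT1, UGGT2 and EIF2AK3 held whichever library was left out. Those of P4HB (0.066) and DDOST (0.098) ended without esiUSP9X 1, and that of DDOST also without esiFLI1 1 (0.051). The call of SDF2L1 ended without esiFLI1 2 (0.072) or esiUSP9X 2 (0.059), that of MANF without esiFLI1 2 (0.068) or esiUSP9X 1 (0.10), and that of ATF6 whichever of the 4 knockdown libraries was left out (0.08 to 0.21). Adjusted p of the called members ran from 4.3e-12 to 1.0 over all alternatives.

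Ratios of partner genes were taken within each library. The ratio of HSPA5 to HSP90B1 was 0.397 and 0.357 in esiGFP, 0.29 and 0.233 with esiFLI1 and 0.44 and 0.378 with esiUSP9X, lowest in both esiFLI1 libraries. MAGT1 to TUSC3, the alternative oxidoreductase subunits, stood at 1.45 and 1.24 in esiGFP, 1.52 and 1.68 with esiFLI1 and 1.11 and 1.17 with esiUSP9X, with no overlap among the groups. ERO1L to ERO1LB was 30.3 and 32.5 in esiGFP, 19.8 and 20.9 with esiFLI1 and 36.1 and 32.5 with esiUSP9X. STT3A to STT3B stayed between 0.631 and 0.727 in all libraries, with both esiUSP9X libraries (0.632 and 0.661) under both esiGFP libraries (0.71 and 0.703). The ratios of CALR to CANX and of UGGT1 to UGGT2 overlapped between all groups. CALR to CANX was 3.61 and 3.18 in esiGFP, 5.35 and 3.11 with esiFLI1 and 4.05 and 3.17 with esiUSP9X. UGGT1 to UGGT2 was 5.25 and 3.34, then 3.8 and 2.01, then 5.53 and 3.73. With 2 libraries against 2, an exact two-sided permutation test cannot go below p = 0.333, so these ratios are descriptions.

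Other lists of the secretory pathway, chosen with earlier results known, were counted in the same blocked fit of esiFLI1 against esiGFP, in which 20.6% of all genes were higher and 21.6% lower. Of 11 tested genes for collagen folding in the ER, 8 rose (72.7%) and 0 fell (median log2 change 0.54), among them P4HA2, the catalytic partner of P4HB, which was 8.65 and 7.17 FPKM with esiGFP and 35.0 and 23.4 with esiFLI1 (1.74, adjusted p = 4.1e-05). Of 20 genes for ER exit and retrieval 6 rose (30.0%) and 0 fell (median 0.17), with the KDEL receptor KDELR3 at 10.5 and 7.41, then 22.5 and 22.1 FPKM (1.24, adjusted p = 0.00033), and the coat protein SEC24D at 0.94. Among 23 other ER folding genes 4 rose (17.4%, near the share of all genes) and 1 fell (4.35%, median 0.19), with the sulfhydryl oxidase QSOX1 at 0.97 and the thioredoxin-like TMX2 at -0.71, whose call ended without esiFLI1 2 (0.093).

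Of 32 genes for the N-glycan precursor and for small subunits of the transferase, 1 rose (3.12%) and 9 fell (28.1%, median -0.21), with SRD5A3, which makes dolichol, at 7.39 and 9.27, then 4.38 and 3.58 FPKM (-0.90, adjusted p = 0.0018). Among 24 genes for translocation into the ER 3 rose (12.5%) and 6 fell (25.0%, near the 21.6% of all genes, median -0.02), and the signal peptidase subunit SEC11C went from 222 and 244 to 96.1 and 93.5 FPKM (-1.29, adjusted p = 9.8e-05, and 0.026 without a block). Of 23 other degradation genes 7 rose (30.4%) and 5 fell (21.7%, near the share of all genes), with the ubiquitin-conjugating enzyme UBE2G2 at -0.77. TRAM2, at 0.99, was placed in that list but is a translocon-associated protein.

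Of 16 genes of the ATF4 branch and stress proteases 5 rose (31.2%) and 7 fell (43.8%) in esiFLI1, against 20.6% and 21.6% of all genes. ASNS, which makes asparagine, was 115 and 140 FPKM with esiGFP and 29.7 and 33.0 with esiFLI1 (-1.99, adjusted p = 1.1e-05), and TRIB3, a pseudokinase, was 51.5 and 23.1, then 9.38 and 4.73 (-2.21). CREB3L1 and CREB3L2, membrane-bound transcription factors cut by the same proteases as ATF6, rose by 1.29 and 1.04, the first from 9.01 and 4.38 to 23.3 and 12.2 FPKM. In esiUSP9X the blocked fit called 0 genes of these 7 lists, and the fit without a block called 0 of them too, with 0 at an unadjusted p under 0.05. Of all genes, the blocked fit called 0.074% higher and 0.164% lower there. Without a block the shares were 0.0247% and 0.0%, with 0.937% at an unadjusted p under 0.05. For lists of this size 0 calls is near those shares.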

How the data were processed

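The authors deposited FPKM per gene symbol for 6 libraries. The submitters' processing notes name TopHat, Cufflinks, Cuffdiff, hg19 and GRCh37, without versions or roles. Per the labels' protocols, a stranded ribosomal-depletion kit was applied to 2 µg of RNA and 75-nt single-end reads were made. Values of overlapping genes are uncertain, because strand use in counting is not given in the sources used here. There were 25268 symbols (1 stray line dropped) and 0 columns of no sample. Depth is unknown, since counts were not used.

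The 12169 genes reaching 1 FPKM in 2 or more libraries were fitted as log2(FPKM + 1), which understates changes of low genes, in limma 3.58.1 (R 4.3.3; eBayes with trend, all 6 libraries, 2-sided). Residual and prior degrees of freedom were 3 and 2.21 with no block, 2 and 5.72 with it. Replicate numbers 1 and 2 come from the labels, and their pairing comes from the data: deviations from group means correlated at 0.647 (esiGFP, esiFLI1), 0.589 (esiGFP, esiUSP9X) and 0.644 (esiFLI1, esiUSP9X). Nothing in the labels says that the replicates are separate cultures, and p-values then cover only the spread among these libraries, which may be technical. The fits were tested on data simulated with the replicate effect and spread that the blocked fit had estimated, a setting that favours that fit. There the fit without a block recovered 0% of 1.5-fold and 2-fold changes. The blocked fit recovered 92.6% and 99.8% at an adjusted p under 0.05, and 7.94% of its calls were false. Far fewer genes were changed in the simulation than the blocked fit called in these data, which makes the adjusted p stricter. In these data the fit without a block did call genes, 314 higher and 28 lower in esiFLI1 against esiGFP. The 0% is therefore not its rate here. Whether its lack of member calls reflects lack of change cannot be told from the simulation.

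Members and lists were chosen with earlier results of these data known. Values in every library were to be given, per role, for the most abundant member, the 4 with the smallest blocked p in esiFLI1 and any that the filter removed, and from each other list for the 2 genes with the smallest blocked p per direction. Others were added after their values were seen, and some of the latter genes are left out. C11orf10 was read as TMEM258. Alternatives changed the pseudocount, filter, scaling, groups fitted, block and libraries.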

Additional observations from a re-analysis of the deposited data

How the results depend on the processing

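With the replicate block, limma called 2502 genes higher and 2623 lower in esiFLI1 against esiGFP, where the fit without it called 314 and 28, 9 and 20 in esiUSP9X against esiGFP (3 and 0 without), and 2453 and 2543 in esiUSP9X against esiFLI1 (51 and 324 without). Higher calls made up 48.8% of calls with the block and 91.8% without in esiFLI1 against esiGFP, 31.0% and 100.0% in esiUSP9X against esiGFP and 49.1% and 13.6% between the knockdowns. With the block, members called higher and lower numbered 16 and 2, 1 and 0, and 2 and 19 in that order of comparisons. In esiFLI1 against esiGFP these comprised 3 chaperones higher and 2 lower, and 6 disulfide enzymes, 1 sensor, 2 oligosaccharyltransferase and 4 degradation genes higher. Between the knockdowns they comprised 2 chaperones higher, and 3 chaperones, 7 disulfide enzymes, 2 sensors, 3 oligosaccharyltransferase and 4 degradation genes lower.

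Quantile normalization with the replicate block gave 2178 and 2532, 11 and 23, and 2662 and 2201 genes, and 18 and 1, 1 and 0, and 2 and 19 members. Its roles in esiFLI1 were 4, 6, 1, 3 and 4 higher in the order chaperones, disulfide enzymes, sensors, oligosaccharyltransferase and degradation, with 1 chaperone lower, and between the knockdowns 4, 6, 2, 4 and 3 lower. Upper quartile rescaling with the replicate block gave 2767 and 2067, 9 and 14, and 2281 and 2585 genes, and 19 and 2, 1 and 0, and 2 and 19 members. Its roles in esiFLI1 were 4, 7, 1, 3 and 4 higher with 2 chaperones lower, and between the knockdowns 3, 7, 2, 3 and 4 lower. In both, the 1 member higher in esiUSP9X was of oligosaccharyltransferase, and the 2 higher between the knockdowns were chaperones. Under quantile and upper quartile scaling, higher calls made up 46.2% and 57.2% in esiFLI1, 32.4% and 39.1% in esiUSP9X, and 54.7% and 46.9% between the knockdowns.

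Without a block and with no filter on low values, 519 genes were higher in esiFLI1 and 487 lower between the knockdowns. A filter at 5 FPKM gave 123 and 16, and 25 and 129, and fitting only the 2 groups compared gave 52 and 4, and 6 and 63. The other pseudocounts kept each count within 1.5 times.

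A group left with 1 library was assumed to vary like the others. These fits have fewer residual degrees of freedom than the full fits, so a call that holds in them is a weak check. Leaving out 1 library, the fits with the replicate block gave 1486 to 2336 genes higher and 1154 to 2334 lower in esiFLI1, 5 to 116 and 3 to 208 in esiUSP9X, and 1089 to 2674 and 1548 to 2710 between the knockdowns. The fits without it gave 2 to 134 and 0 to 4, 3 to 4 and 0 to 2, and 2 to 6 and 1 to 142. They called 0 members in any comparison. With the block, members called higher and lower numbered 6 to 13 and 0 to 2, 0 to 1 and 0, and 0 to 2 and 6 to 20. Its roles in esiFLI1 ranged over 0 to 3, 1 to 4, 1, 1 to 2 and 2 to 4 higher, with 0 to 2 chaperones lower. Between the knockdowns they ranged over 1 to 4, 3 to 7, 1 to 2, 1 to 3 and 0 to 4 lower, with 0 to 2 chaperones higher, and 0 to 1 oligosaccharyltransferase gene was higher in esiUSP9X.

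Rescaling turned the sign of uncalled members only. In esiFLI1 it did so for 11 of 44 with the sum without MIR6723, EEF1A1 and FN1, 6 with quantile normalization and 4 with upper quartile rescaling, for 6, 4 and 4 in esiUSP9X and for 6, 3 and 0 between the knockdowns. ERN1 in esiFLI1 was at -0.02, and at 0.01 with upper quartile rescaling (also 0.01 with the replicate block) and 0.05 when rescaled to the sum without MIR6723, EEF1A1 and FN1. Leaving out 1 library took ERN1 from -0.23 to 0.19, MPDU1 from -1.48 to 0.01, RPN2 from -0.17 to 0.33, SDF2L1 from -1.37 to 0.0031 and TUSC3 from -0.05 to 0.45. Between the knockdowns it took EDEM3 from -0.72 to 0.02, MPDU1 from -0.19 to 1.29 and SDF2L1 from -0.06 to 1.31. For MPDU1, SDF2L1 and EDEM3 both ends of these ranges came from fits without a block that left out an esiFLI1 library. The cause was not tested.

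The depth of the libraries is unknown, and with 2 libraries a group a call can rest on 1 of them.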
